A study of Homo sapiens with 6 samples.

Results

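Immune checkpoint genes of the tumor cell were examined in MDA-MB-231, an established human triple-negative breast adenocarcinoma cell line, after treatment with the DNA methyltransferase inhibitor guadecitabine (SGI-110). The 10 genes were chosen by name as ligands or enzymes through which a tumor cell restrains immune cells, and all 10 were among the 17100 genes of the deposited count table. They were CD274, PDCD1LG2, CD276, VTCN1, CD80, CD47, PVR, TNFRSF14, IDO1 and NT5E. Cells of the guadecitabine group were exposed to 1 µM guadecitabine for 96 h and then kept without drug for 24 h, and cells of the vehicle group received vehicle only. Each group had 3 RNA sequencing libraries, and the paper's methods state that the RNA came from independent experiments. A single cell line grown without immune cells was sequenced, so that transcripts were measured and neither surface protein nor contact with T cells was.

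T cells are held back when inhibitory receptors on their surface bind ligands on other cells. PD-L1 (CD274) and PD-L2 (PDCD1LG2) bind PD-1, and the related B7 family proteins B7-H3 (CD276) and B7-H4 (VTCN1) inhibit T cells through other receptors. CD80 binds CD28 and CTLA-4 and is mainly a protein of antigen-presenting cells. CD155 (PVR) is bound by the inhibitory receptor TIGIT and by the activating receptor CD226 on T cells and natural killer cells, and HVEM (TNFRSF14) is bound by BTLA. CD47 signals to macrophages through SIRPα not to engulf the cell. IDO1 degrades tryptophan to kynurenine, and CD73 (NT5E) makes extracellular adenosine, which acts on adenosine receptors of immune cells.

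The libraries held between 8792127 and 22277442 counts, with guadecitabine replicate 2 the least deeply sequenced. Vehicle replicate 3 stood apart. It had 20 transcripts at 0 counts, against 2498 and 2517 in the other vehicle libraries and 1593 to 2090 in the guadecitabine libraries, and 890 transcripts had counts in it and in no other library. Those 890 had a median of 7.98 counts per kb of exon in that library. None of them had fewer than 11 counts, which was the smallest total of any transcript in the deposited counts. The libraries had the markers of the cell line, with 910 or more counts of each of 9 markers such as VIM, CD44 and KRT18 in each library. The hormone receptor genes ESR1 and PGR had at most 1 count outside vehicle replicate 3, while ERBB2, EPCAM and GATA3 had 90 to 1974 counts in a library.

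Of the 10 checkpoint genes, 8 passed the filter on low counts and 3 of these were higher after guadecitabine at an adjusted p under 0.05 (quasi-likelihood test of edgeR, with p adjusted by Benjamini-Hochberg over 13322 genes). These were PVR, PDCD1LG2 and CD274. None was lower at this threshold, by which 19.3% of all tested genes rose and 18.4% fell. With p left unadjusted, 4 of the 8 genes had a positive change under 0.05, IDO1 being the addition, and 2 a negative change. No share of all tested genes is given for the unadjusted p. The median log2 fold change of the 8 genes was 0.17, against 0.02 over all tested genes, and it was 0.03 over the 7 genes with at least 10 counts in every library, which leaves out IDO1. With no filter it was -0.11 over the 10 genes, against -0.11 over all genes. The 10 include VTCN1 and CD80, which had counts in vehicle replicate 3 alone. The ranges of the groups did not overlap for 3 genes that were higher and 2 that were lower after guadecitabine, and over all tested genes this held for 26.6% and 25.0%. Fewer cells of a kind and less RNA per cell cannot be told apart in these bulk libraries.

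**Figure D1:**
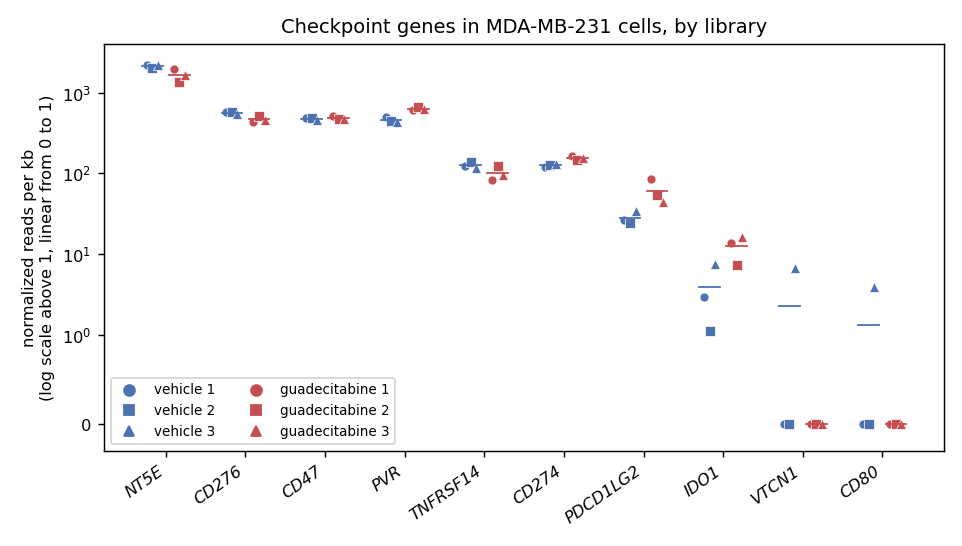
Normalized reads per kb of counted exon (y axis, logarithmic above 1 and linear from 0 to 1) of each checkpoint gene in the 3 vehicle libraries (blue) and the 3 guadecitabine libraries (red), with a bar at the mean of each group. NT5E was the highest in both groups, and the only points of VTCN1 and CD80 above 0 are those of vehicle replicate 3.

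Levels of different genes were compared as TMM normalized counts per kb of counted exon. In vehicle cells NT5E was the highest with 2123 ± 101 reads per kb (SD, n = 3). CD276 followed with 565 ± 18.4, CD47 with 476 ± 21.0 and PVR with 463 ± 35.7 reads per kb (SD, n = 3). The ranges of CD47 and PVR overlapped, so that their order was not resolved. TNFRSF14 and CD274 had nearly the same level, with 125 ± 11.0 and 125 ± 6.24 reads per kb (SD, n = 3), and PDCD1LG2 had 28.2 ± 4.96. After guadecitabine NT5E was still first with 1650 ± 316 reads per kb (SD, n = 3), but PVR was second with 635 ± 25.4, above all libraries of CD47 and CD276. CD47 and CD276 overlapped with 486 ± 29.1 and 464 ± 40.6 reads per kb (SD, n = 3). CD274 had 156 ± 7.77 reads per kb (SD, n = 3) and no longer overlapped TNFRSF14, which had 99.7 ± 21.2. PDCD1LG2 had 60.7 ± 20.8 reads per kb and overlapped the lowest library of TNFRSF14.

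The PD-1 ligands lie next to each other on chromosome 9 of the hg19 build, CD274 from 5450503 to 5470567 and PDCD1LG2 from 5510545 to 5571282, both on the plus strand and 39.98 kb apart. CD274 had 396, 418 and 438 normalized counts in vehicle replicates 1, 2 and 3, and 547, 495 and 519 in guadecitabine replicates 1, 2 and 3. All 3 guadecitabine libraries were above all 3 vehicle libraries, and the difference was a log2 fold change of 0.32 ± 0.10 (SE), or 1.25-fold (95% interval 1.06 to 1.47, adjusted p = 0.0372 from the edgeR test). This was a small difference close to the threshold. With a library left out in turn, the adjusted p ranged from 0.0361 to 0.157 and passed in 1 of 6 fits, the one without guadecitabine replicate 2, while the log2 fold change stayed between 0.28 and 0.36.

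PDCD1LG2 had 63.8, 59.1 and 81.9 normalized counts in the vehicle libraries and 203, 130 and 107 in the guadecitabine libraries. The groups did not overlap, and guadecitabine replicate 1 was the highest. PDCD1LG2 had the largest change of the 3 genes that rose, with a log2 fold change of 1.11 ± 0.27 (SE), or 2.16-fold (95% interval 1.40 to 3.31, adjusted p = 0.0121 from the edgeR test). Without guadecitabine replicate 1 the log2 fold change was 0.78 (adjusted p = 0.0467), and it passed in each of the 6 fits with a library left out. The level of CD274 per kb was 4.49, 5.11 and 3.87 times that of PDCD1LG2 in vehicle replicates 1, 2 and 3. After guadecitabine it was 1.94, 2.75 and 3.51 times, lower in each library than in any vehicle library. No test was made of this ratio, which was formed after the values of both genes were known.

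The 250 bases before the transcription start are shown for a ligand that rose, PVR, for CD274, and for CD80, which was not detected outside vehicle replicate 3. Guadecitabine acts on methylation of CpG, and the capitals mark each CpG. Methylation itself was not measured in these libraries. The sequences are those of RefSeq on GRCh38.p14, which differs from the build of the counts, and are written 5′ to 3′ on the strand of the gene. They lie at chr9:5450292-5450541 on the plus strand for CD274, at chr19:44643660-44643909 on the plus strand for PVR and at chr3:119559615-119559864 on the minus strand for CD80.
CD274: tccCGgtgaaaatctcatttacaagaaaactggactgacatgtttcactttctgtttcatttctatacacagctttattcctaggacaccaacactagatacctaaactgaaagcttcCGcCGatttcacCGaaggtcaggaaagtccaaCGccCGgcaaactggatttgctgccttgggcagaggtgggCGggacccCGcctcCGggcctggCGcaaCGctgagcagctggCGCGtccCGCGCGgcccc
PVR: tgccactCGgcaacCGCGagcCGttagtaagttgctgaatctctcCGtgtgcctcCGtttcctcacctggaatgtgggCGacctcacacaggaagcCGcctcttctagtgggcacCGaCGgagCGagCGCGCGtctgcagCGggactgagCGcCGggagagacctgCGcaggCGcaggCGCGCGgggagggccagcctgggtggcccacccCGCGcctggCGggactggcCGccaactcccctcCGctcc
CD80: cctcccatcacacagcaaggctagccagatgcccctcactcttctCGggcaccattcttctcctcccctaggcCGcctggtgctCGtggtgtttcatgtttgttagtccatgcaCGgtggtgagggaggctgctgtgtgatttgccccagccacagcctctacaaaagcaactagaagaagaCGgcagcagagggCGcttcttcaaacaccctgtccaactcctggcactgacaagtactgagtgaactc

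CD274 had 16 CpG in these 250 bases, PVR had 27 and CD80 had 6, against a median of 11 over 35116 promoters of the same length. Of those promoters, 59.0% had fewer CpG than CD274, 82.3% fewer than PVR and 38.1% fewer than CD80. Among the other genes, CD47 had 39 CpG, NT5E 28, TNFRSF14 9 and VTCN1 6, and the promoters listed for CD276 had 29 and 23. A promoter was found for 8 of the 10 genes, without PDCD1LG2 and IDO1. CD274 is known as a gene induced by interferon through JAK and STAT proteins. The interferon-stimulated response element, searched on both strands as GAAA, any 2 bases and GAAA, matched 2 times in the promoter of CD274, in a pair of overlapping matches from 208 to 193 bases before the start. The element was in 3.02% of all promoters and in no other checkpoint promoter of the table. With the matched bases in capitals, this stretch at chr9:5450329-5450354 reads acatgTTTCACTTTCTGTTTCatttc.
The gamma-activated site, searched as TTC, any 3 bases and GAA, matched 1 time in CD274 and was in 6.57% of all promoters. The consensus site of NF-kB was in the promoter of TNFRSF14 and in 8.04% of all promoters. It was also in the CD276 promoter with 23 CpG, but not in the CD276 promoter with 29. These matches describe letters only, and binding was not measured.

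PVR lies on chromosome 19 of hg19 from 45147098 to 45169428 on the plus strand. It had 2907, 2592 and 2519 normalized counts in vehicle replicates 1, 2 and 3 and 3523, 3814 and 3643 in guadecitabine replicates 1, 2 and 3. The lowest guadecitabine library was above the highest vehicle library. PVR had the smallest adjusted p of the checkpoint genes, with a log2 fold change of 0.45 ± 0.10 (SE), or 1.37-fold (95% interval 1.17 to 1.60, adjusted p = 0.00732 from the edgeR test). It passed in each of the 6 fits with a library left out, with log2 fold changes from 0.41 to 0.52. The related ligand NECTIN2, listed as PVRL2 and also bound by TIGIT, had 3082 ± 86.7 normalized counts in vehicle and 3387 ± 216 after guadecitabine (SD, n = 3), and its log2 fold change was 0.14 (edgeR, adjusted p = 0.303). Per kb, the level of PVR was 0.395 to 0.482 times that of NECTIN2 in vehicle and 0.509 to 0.555 times after guadecitabine. In the GENCODE annotation 20.6% of the exon bases of PVR are shared with other genes such as CEACAM19, which had 34 to 58 counts in a library. That share is over 10427 GENCODE exon bases, while 5768 bases were counted.

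**Figure D2:**
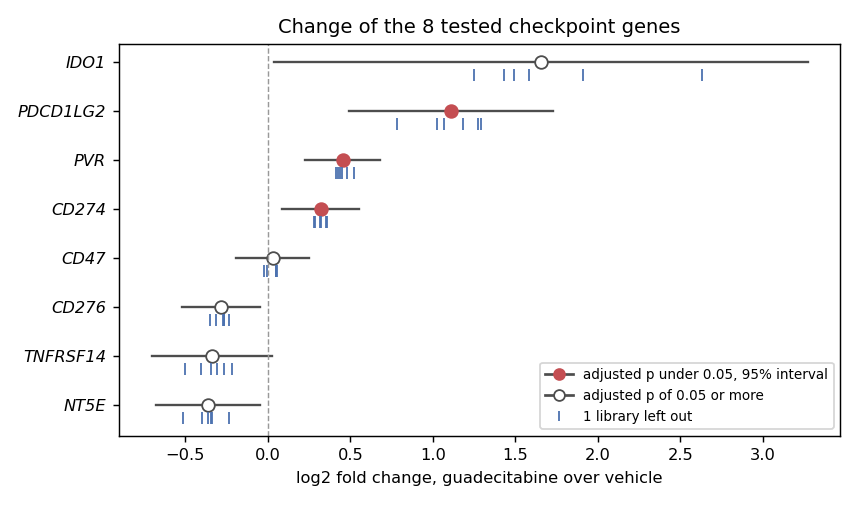
Log2 fold change of guadecitabine over vehicle (x axis) for the 8 checkpoint genes tested, with its 95% interval as a line, a filled circle for an adjusted p under 0.05 and, below each line, blue ticks for the values with 1 library left out. PDCD1LG2, PVR and CD274 are filled, and the interval of IDO1 is the widest, from 0.03 to 3.27.

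CD276 and NT5E had lower values after guadecitabine that did not pass the adjusted threshold. CD276, on chromosome 15 from 73976622 to 74006859, had 1589, 1571 and 1494 normalized counts in the vehicle libraries and 1187, 1400 and 1238 in the guadecitabine libraries. The groups did not overlap, and the log2 fold change was -0.29 ± 0.11 (SE), or 0.821-fold (95% interval 0.696 to 0.967, adjusted p = 0.0592 from the edgeR test). NT5E, on chromosome 6 from 86159302 to 86205509, had 8551, 7859 and 8545 normalized counts in the vehicle libraries and 7736, 5267 and 6390 in the guadecitabine libraries. All guadecitabine libraries were below all vehicle libraries, with the shallowest library, guadecitabine replicate 2, the lowest. The log2 fold change of NT5E was -0.36 ± 0.14 (SE), or 0.778-fold (95% interval 0.626 to 0.966, adjusted p = 0.0673 from the edgeR test). Both calls turned on the fit. With the Wald test of DESeq2 the adjusted p was 0.0348 for CD276 and 0.0268 for NT5E. Without guadecitabine replicate 2 CD276 passed (adjusted p = 0.0357, edgeR), and without guadecitabine replicate 1 NT5E passed (adjusted p = 0.0118, edgeR).

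TNFRSF14 had 374, 413 and 347 normalized counts in the vehicle libraries and 248, 372 and 285 in the guadecitabine libraries. Guadecitabine replicate 2 lay within the vehicle range and the other guadecitabine libraries below it. The log2 fold change was -0.34 ± 0.16 (SE), or 0.789-fold (95% interval 0.613 to 1.02, adjusted p = 0.126 from the edgeR test), and it was -0.50 without guadecitabine replicate 2 (adjusted p = 0.0219). In the GENCODE annotation 13.3% of the exon bases of TNFRSF14 are shared with its antisense gene TNFRSF14-AS1. That share is over 6214 GENCODE exon bases, while 3026 bases were counted, and overlap within the counted bases was not examined. The strand used in counting is not given in the sources used here, so that reads of any shared bases cannot be told apart.

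CD47, the signal to macrophages, had 2578, 2587 and 2390 normalized counts in the vehicle libraries and 2745, 2475 and 2482 in the guadecitabine libraries. The groups overlapped, and the log2 fold change was 0.03 ± 0.10 (SE, adjusted p = 0.845 from the edgeR test). The 95% interval of the fold change was 0.874 to 1.19.

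IDO1 was at low counts in all libraries and passed the filter on low counts through the guadecitabine libraries, where it was higher. It had 6, 2 and 19 reads in vehicle replicates 1, 2 and 3 and 33, 7 and 31 reads in guadecitabine replicates 1, 2 and 3. After normalization these were 5.71, 2.11 and 14.7 counts in vehicle and 26.7, 14.2 and 31.3 after guadecitabine, and the groups overlapped by vehicle replicate 3 and guadecitabine replicate 2. The log2 fold change was 1.65 ± 0.72 (SE), or 3.14-fold (95% interval 1.02 to 9.65, adjusted p = 0.0996 from the edgeR test). Without vehicle replicate 3 the log2 fold change was 2.63 (adjusted p = 0.00289), the 1 of 11 alternative fits in which IDO1 passed. In vehicle replicate 3 IDO1 had 9.84 counts per kb, beside the median of 7.98 for the transcripts seen in that library alone. The part of these counts in the result was not tested.

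VTCN1 and CD80 had 0 reads in 5 of the 6 libraries and 23 and 14 reads in vehicle replicate 3. A count of 0 allows up to 3 reads in a library, for counting error only, and the guadecitabine libraries had 8792127 to 21410849 counts in all. Per kb of exon, the reads of VTCN1 and CD80 in vehicle replicate 3 were 8.72 and 5.08. Both genes belong to the transcripts seen in that library alone, which had a median of 7.98. Neither gene passed the filter on low counts, and no fold change is given. Expression after guadecitabine was therefore not detectable at this depth for either gene, while NT5E in the same libraries had 2588 to 9555 reads.

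**Figure D3:**
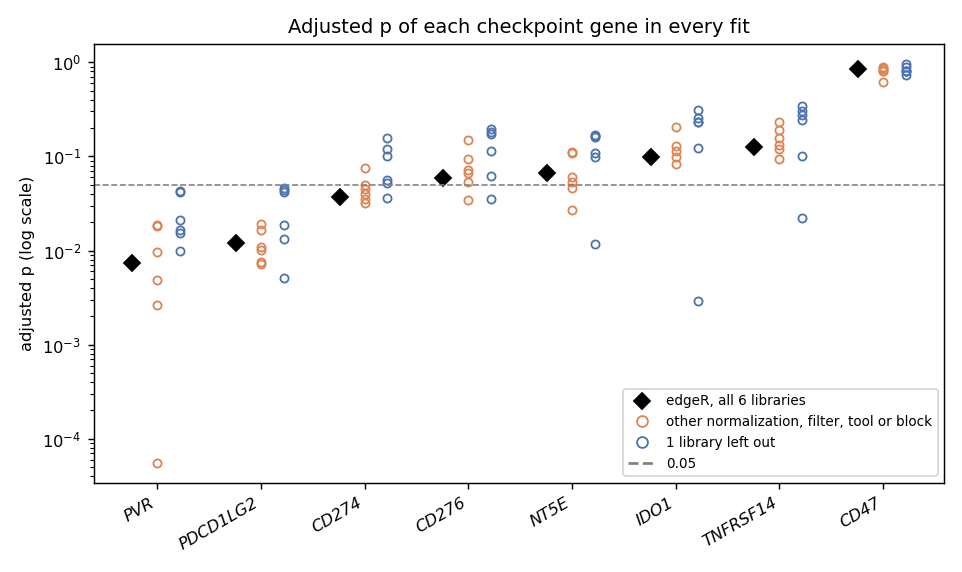
Adjusted p (y axis, log scale) of each of the 8 checkpoint genes tested, from edgeR on all 6 libraries (black diamond), from other normalizations, filters, DESeq2 or a replicate block (orange) and with 1 library left out (blue), with a dashed line at 0.05. All points of PVR and PDCD1LG2 lie below the line, those of CD274 lie on both sides of it, and those of CD47 all lie above it.

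Other genes of these pathways were counted in 5 lists. For each list the background is all tested genes, of which 19.3% were higher and 18.4% lower, with a median log2 fold change of 0.02. Of 9 tested B7 and butyrophilin relatives, 5 rose and 2 fell (adjusted p under 0.05, edgeR), with a median log2 fold change of 0.48. With no filter this median was -0.03 over 13 genes, against -0.11 over all genes. The number that rose was 2 without guadecitabine replicate 3 and 3 without vehicle replicate 1 or without vehicle replicate 2, while 2 fell in each of these fits. Over all tested genes 2576 were higher with all libraries. That number was 1706 without guadecitabine replicate 3, 1802 without vehicle replicate 1 and 1840 without vehicle replicate 2. VISTA, listed as C10orf54, which inhibits T cells, rose from 558 ± 18.2 to 860 ± 129 normalized counts (SD, n = 3), with a log2 fold change of 0.62 (edgeR, adjusted p = 0.00488). BTN2A1 and BTN2A2, butyrophilins that modulate T cells, rose by log2 fold changes of 0.51 and 0.48 (adjusted p = 0.00394 and 0.0117, edgeR), and BTN2A2 passed in 4 of 6 fits with a library left out. BTN3A3 and ILDR2 fell by 0.48 and 0.92 on the log2 scale (adjusted p = 0.00631 and 0.00103, edgeR).

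Costimulatory ligands and receptors of the TNF superfamily had the highest median of the lists. Of 8 tested, 6 were higher and none lower (edgeR), with a median log2 fold change of 1.66. LTA and CD70 passed the filter on low counts through the guadecitabine libraries alone, so that their being higher was partly set by the filter. The median was 1.03 over the 5 genes with at least 10 counts in every library, all 5 of them higher, and 1.05 over 9 genes with no filter. The number higher was 3 without guadecitabine replicate 3, and 4 without vehicle replicate 1, vehicle replicate 2 or guadecitabine replicate 2. Over all tested genes the number higher was 1706, 1802, 1840 and 2484 in these fits, in that order. LTA, which encodes lymphotoxin alpha, had 0, 3 and 13 reads in vehicle replicates 1, 2 and 3 and 380, 174 and 346 reads in guadecitabine replicates 1, 2 and 3 (edgeR, adjusted p = 2.05e-05, and 5.49e-06 with no filter). TNFSF15 rose from 67.1 ± 14.4 to 614 ± 139 normalized counts (SD, n = 3), with a log2 fold change of 3.20 (edgeR, adjusted p = 8.99e-06). TNFSF9, the ligand of the costimulatory receptor 4-1BB, rose by a log2 fold change of 0.53 (adjusted p = 0.0253, edgeR). It passed in 1 of 6 fits with a library left out, and without vehicle replicate 3 its adjusted p was 0.0514.

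Among 14 tested nectins and other checkpoint ligands, 1 was higher and 2 lower (edgeR), and 1 was lower without vehicle replicate 3. Among all tested genes 19.3% were higher and 18.4% lower. The median log2 fold change of this list was -0.10. CD24, a ligand of the inhibitory receptor Siglec-10 on macrophages, fell by 0.95 on the log2 scale from 208 ± 34.2 to 109 ± 13.8 normalized counts (SD, n = 3, adjusted p = 0.00336 from the edgeR test). CD58, which binds CD2 on T cells, fell by 0.36 (adjusted p = 0.0369, edgeR), but it passed in 1 of 6 fits with a library left out, with an adjusted p of 0.103 without vehicle replicate 3. CD200, which was the gene that was higher and is named after its values were seen, had 0, 0 and 5 reads in vehicle and 26, 8 and 25 after guadecitabine. It also passed the filter through the guadecitabine libraries alone. Its call held in 2 of 6 fits with a library left out, those without vehicle replicate 3 and without guadecitabine replicate 2, and it was lost with no filter.

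In the tryptophan and adenosine pathways beside IDO1 and NT5E, 5 of 17 tested genes were higher and 3 lower (edgeR), with a median log2 fold change of 0.22. Among all tested genes 19.3% were higher and 18.4% lower. KYNU, kynureninase, which acts downstream of IDO1, rose from 44.4 ± 16.3 to 231 ± 31.3 normalized counts (SD, n = 3), with a log2 fold change of 2.37 (edgeR, adjusted p = 0.00018). ENTPD1, which encodes CD39 and supplies the AMP that NT5E converts, rose by a log2 fold change of 0.85 (adjusted p = 0.00865, edgeR), and the adenosine receptor gene ADORA2B rose by 0.72 (adjusted p = 0.0004, edgeR). The adenosine deaminase gene ADA, with a mean of 86.8 counts and named after its values were seen, rose by 1.35 (adjusted p = 0.00403, edgeR). The level of ENTPD1 was low, since that of NT5E per kb was 153 to 228 times higher in vehicle and 62.2 to 94.5 times higher after guadecitabine. ENPP1, another enzyme that makes AMP outside the cell, fell by 0.94 on the log2 scale, and the nucleoside transporter gene SLC29A2 fell by 1.00 (adjusted p = 0.000908 and 0.000806, edgeR). CCBL1, which encodes a kynurenine aminotransferase, fell by 0.58 (adjusted p = 0.00357, edgeR).

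Of 27 tested regulators of PD-L1, 10 were higher and 3 lower (edgeR), against 19.3% and 18.4% of all tested genes. The median log2 fold change of the regulators was 0.13. The regulators higher and lower were 5 and 1 without guadecitabine replicate 3 and 6 and 2 without vehicle replicate 2. They were 7 and 1 without vehicle replicate 1, and 8 and 2 without vehicle replicate 3. Without guadecitabine replicate 1 they were 8 and 4, and without guadecitabine replicate 2 they were 9 and 2. Over all tested genes 1706 were higher and 1629 lower without guadecitabine replicate 3, against 2576 and 2446 with all libraries. Among those with a mean of at least 100 counts, CD44 and NFKB1 had the largest rises, with log2 fold changes of 1.18 and 0.77 (adjusted p = 2.66e-05 and 0.000326, edgeR), and the phosphatase gene PTPN2 rose by 0.71 (adjusted p = 0.0144, edgeR). SOCS3, an inhibitor of STAT signalling, fell by 0.92 on the log2 scale (adjusted p = 0.00181, edgeR). STAT2 and CMTM4, which encodes a protein that protects PD-L1 from degradation, fell by 0.40 and 0.49 (adjusted p = 0.0138 and 0.0461, edgeR). CMTM6 of the same list, named after its values were seen, rose by 0.40 (adjusted p = 0.0245, edgeR). Its adjusted p was 0.0504 without vehicle replicate 3. In vehicle CMTM6 had 2972 ± 214 normalized counts and CMTM4 had 456 ± 99.5 (SD, n = 3). With a library left out in turn, PTPN2 passed in 5 of 6 fits, STAT2 in 3 of 6 and CMTM4 in 2 of 6. IRF1, a direct activator of CD274, was named after its value was seen, with 2116 ± 221 normalized counts in vehicle and 2003 ± 157 after guadecitabine (SD, n = 3, log2 fold change -0.08, adjusted p = 0.624 from the edgeR test).

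**Figure D4:**
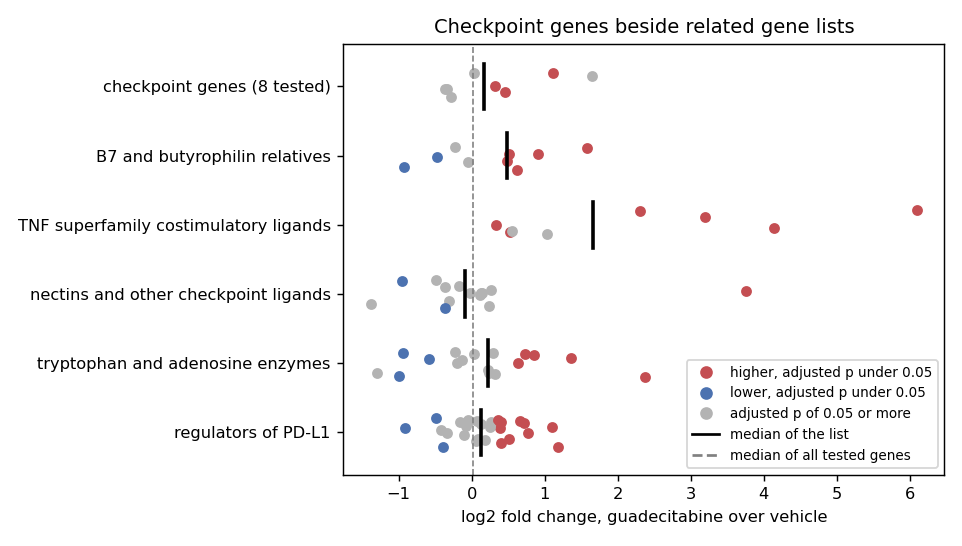
Log2 fold change of guadecitabine over vehicle (x axis) for the tested genes of the checkpoint set and of 5 related lists, red where higher and blue where lower at an adjusted p under 0.05, with a black bar at the median of each list and a dashed line at the median of all tested genes, 0.02. The median of the TNF superfamily list, 1.66, is the farthest from that line.

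Receptors of these ligands and markers of other cell types were counted as well, beside the 19.3% higher and 18.4% lower among all tested genes. Of 13 counter-receptor genes with counts, 3 were tested and 1 was higher, CTLA4, which is named after its values were seen and had 0, 1 and 9 reads in vehicle and 78, 27 and 49 after guadecitabine. CTLA4 passed the filter on low counts through the guadecitabine libraries alone, and with at least 10 counts in every library 1 of the 13 was tested and 0 were higher. Without vehicle replicate 3, CD96 was higher as well (edgeR, adjusted p = 0.0095). Of 13 immune cell markers, 5 were tested, 1 was higher and 1 lower. The pan-leukocyte marker PTPRC had 0, 2 and 36 reads in vehicle and 3, 0 and 2 after guadecitabine, and CD2, CD4 and MS4A1 had 0 reads in each library other than vehicle replicate 3. Other markers of this list had reads in each library. CD8A had 15 to 59 reads in a library, LYZ 13 to 28 and CD79A 4 to 13. The summed level of the 13 markers was 3390 to 3980 normalized counts in vehicle and 7628 to 7986 after guadecitabine. CD68, a lysosomal protein that is not limited to macrophages, made up most of it and rose by a log2 fold change of 1.27 (adjusted p = 1.69e-05, edgeR), while the macrophage receptor gene CSF1R fell by 1.32 (adjusted p = 0.000115, edgeR). The monocyte marker CD14 had 91 to 257 reads in a library. Of 10 fibroblast and endothelial markers, 8 were tested, 2 were higher and 2 lower (edgeR), and without vehicle replicate 3 LUM, PECAM1 and TEK were also higher, 5 in all. Their summed level was 1214 to 1722 normalized counts in vehicle and 2596 to 3413 after guadecitabine. The rise of this sum lay in COL1A1, which went from 191 ± 89.8 to 2015 ± 287 normalized counts (SD, n = 3). COL1A1 and KDR rose by log2 fold changes of 3.38 and 1.20, and PDGFRB and COL1A2 fell by 0.92 and 0.61 (adjusted p = 3.34e-05, 0.00261, 0.00116 and 0.0106, edgeR). The fibroblast marker DCN had 0, 0 and 24 reads in vehicle and the endothelial marker CDH5 had 0, 0 and 18, and both had 2 to 4 reads after guadecitabine. The part of these markers in the values of the checkpoint genes was not tested.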

How the data were processed

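RNA sequencing counts of 3 vehicle and 3 guadecitabine libraries of MDA-MB-231 cells were analysed, with groups and replicate numbers as labelled. Reads had been mapped by the authors with STAR (version 2.3.1z in the submitters' processing notes) to hg19, and the deposited values are raw counts of exon reads for each RefSeq transcript from iRNA-seq. Another 6 columns of transformed values per sample, and the columns of the authors' own DESeq2 comparison (mean, fold change, standard error, statistic and p-values), were not used here. The counted exon length was deposited beside the counts.

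The quasi-likelihood test of edgeR 4.0.16 (R 4.3.3), two-sided, was applied after TMM scaling and filterByExpr (minimum count 10), with Benjamini-Hochberg adjustment over 13322 of 17100 genes. Standard errors and 95% intervals were derived from the F statistic. The code was tested on simulated data. A normalized count is a count over the effective library size, brought to 17911210 counts, the mean total of the libraries. Two-sided exact permutation tests of single checkpoint genes cannot go below p = 0.1 with 3 against 3 libraries. In the exact permutation test this value was reached by PVR, PDCD1LG2, CD274, CD276 and NT5E, while TNFRSF14 and IDO1 had p = 0.2 and CD47 had p = 0.8. No library pair had the same counts. Reads are not independent molecules, so that floors of 3 counts cover counting error only. Deposited starts were raised by 1 to count from 1, after which 6 of 10 were starts of a GENCODE release 44 transcript on GRCh37.

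The genes and lists were chosen with earlier results of these data known. The text names all 10 checkpoint genes, and from each other list the 3 largest rises and 3 largest falls with an adjusted p under 0.05 and a mean count of at least 100. Other genes named beside them, such as CD70, CD96, CD8A, LYZ, CD79A, CD14, LUM, PECAM1, TEK, DCN and CDH5, were chosen after their values were seen. Markers of the cell line were used only to check identity, and of 9 tested markers expected to be present 2 were higher (CD44 and VIM, the latter by 0.33 on the log2 scale) and 4 lower (among them AXL, CAV1 and KRT19, by -1.27, -1.19 and -0.88), and of 4 tested markers expected to be low 1 was higher (GATA3, by 0.83) and 3 lower (ERBB2 and EPCAM among them, by -0.74 and -0.68). Alternatives were library totals, size factors of DESeq2, the Wald test of DESeq2 1.42.0, testing all genes, a minimum of 10 counts in each sample, a replicate block and each library left out.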

Additional observations from a re-analysis of the deposited data

How the results depend on the processing

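PVR and PDCD1LG2 were higher at an adjusted p under 0.05 in each of the 12 alternative fits, with log2 fold changes from 0.41 to 0.52 and from 0.78 to 1.29. CD274 passed in 6 of 12, and CD47 passed in none of 12. The number of checkpoint genes higher was 3, and from 2 to 3 with a library left out. The number lower was 0, but 2 with the Wald test of DESeq2 (CD276 and NT5E) and from 0 to 2 with a library left out. The log2 fold change of CD47 ranged from -0.023 to 0.056 with a library left out, and was -0.0082 without vehicle replicate 3 and -0.023 without guadecitabine replicate 1. Over all tested genes, 2576 were higher and 2446 lower, and with a library left out these were 1706 to 3002 and 1629 to 2575, each lowest without guadecitabine replicate 3. Over the 5 related lists 27 of 75 tested genes were higher and 10 lower, against 15 to 25 and 7 to 13 with a library left out. With at least 10 counts in every sample, IDO1, LTA, CD70, CD200 and CTLA4 were not tested. The cause of these changes was not tested beyond the libraries left out.

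The replicate numbers were taken as names, since no source ties a number to a shared day. After the group means were removed, libraries with the same number correlated by -0.05, 0.05 and -0.04 across genes, and not every library correlated best with its own number. With the replicate number as a block, 2 checkpoint genes were higher and 1 was lower, NT5E (adjusted p = 0.0466), while CD274 had an adjusted p of 0.0751 (edgeR). The block gave 2424 genes higher and 2230 lower over all genes, and 25 and 10 over the lists.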
